A study of Mus musculus with 6 samples.

Results

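The MHC class II genes and *Ciita*, the gene of their transactivator, were examined in bone marrow–derived macrophages (BMDMs) after HSS, that is, hypoxia with serum starvation, which stands in for ischemia in culture. The 8 genes were taken by name: *Ciita*, *H2-Aa*, *H2-Ab1*, *H2-Eb1*, *Cd74*, *H2-DMa*, *H2-DMb1* and *H2-DMb2*. They are 8 of the 36137 genes with a matched transcript, and all 8 were among the 18506 genes tested. The study made 3 poly(A) RNA libraries from WT BMDMs (*LysM*-Cre+/- *Drp1*+/+) and 3 from *Drp1*KO BMDMs (*LysM*-Cre+/- *Drp1*fl/fl). Cells of both genotypes were cultured to day 7 with L929-conditioned medium and then kept for 8 h in endothelial starvation medium at 2.1% oxygen, as the labels give it; the oxygen level and the share of L929 medium in the methods differ from those in the labels. Both genotypes carried *LysM*-Cre, in which the lysozyme M promoter drives Cre in the myeloid lineage, and the genotypes differ in the floxed *Drp1* allele. The labels call the libraries biological replicates, but the methods describe bone marrow from 2 mice being pooled and do not say whether each library had its own pool. No library from untreated BMDMs was analysed here, so the effect of HSS itself on class II genes cannot be given. The labels give neither age nor sex, and the methods state that young adult mice of both sexes were used.

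Depth was 23389488 to 32231206 estimated counts per library, and 3 counts, taken as the detection floor, were 0.0917 to 0.136 CPM (counts scaled to library size). *Dnm1l*, which encodes DRP1, was at 72.7, 69.9 and 75.1 CPM in the WT libraries and at 58.7, 60.7 and 66.3 CPM in the *Drp1*KO libraries. Every *Drp1*KO library was lower, but the difference did not pass the test (log2 fold change -0.23, edgeR adjusted p = 0.248). The deposited values are per transcript, so the loss of the floxed exons could not be checked. The macrophage genes *Lyz2*, *Adgre1* and *Csf1r* were abundant in all 6 libraries, with at least 8173 CPM of *Lyz2*.

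MHC class II molecules present peptides from the endocytic pathway to CD4+ T cells. In the mouse the classical molecules are I-A, made of the chains encoded by *H2-Aa* and *H2-Ab1*, and I-E, whose β chain is encoded by *H2-Eb1*. *Cd74* encodes the invariant chain, which fills the groove during assembly and routes the complex to endosomes, and *H2-DMa* with *H2-DMb1* or *H2-DMb2* encodes H2-M, which exchanges the remaining invariant chain fragment for peptide. CIITA does not bind DNA itself. It is recruited by RFX, CREB and NF-Y proteins seated on the X and Y boxes upstream of class II genes, and in macrophages its own gene is classically induced by IFN-γ, in part through IRF1.

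Promoter windows show where these boxes lie. RefSeq windows of 300 bases on GRCm38.p6, from 250 bases before to 50 after the start site, could be matched for 5 of the 8 genes (*H2-Aa*, *H2-Eb1*, *H2-DMa*, *H2-DMb1* and *H2-DMb2*), with 2 windows for *H2-DMa*. Each was searched on both strands for ATTGG, the inverted CCAAT box that NF-Y binds, and for GNAAC, the core of the X box, upstream of it with 20 to 36 bases between them. The 4 windows printed are those that carry or nearly carry the pair. Capitals mark the GNAAC X core and ATTGG, or, in *H2-DMb2*, the bases aligned with those of *H2-DMb1*.
H2-Aa, chr17:34287774-34288073, minus strand: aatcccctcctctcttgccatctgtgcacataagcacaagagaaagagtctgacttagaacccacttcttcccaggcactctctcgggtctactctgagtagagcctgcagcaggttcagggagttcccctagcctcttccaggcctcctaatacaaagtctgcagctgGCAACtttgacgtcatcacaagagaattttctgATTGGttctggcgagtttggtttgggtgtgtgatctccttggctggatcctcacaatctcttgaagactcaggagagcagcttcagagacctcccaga
H2-Eb1, chr17:34305617-34305916, plus strand: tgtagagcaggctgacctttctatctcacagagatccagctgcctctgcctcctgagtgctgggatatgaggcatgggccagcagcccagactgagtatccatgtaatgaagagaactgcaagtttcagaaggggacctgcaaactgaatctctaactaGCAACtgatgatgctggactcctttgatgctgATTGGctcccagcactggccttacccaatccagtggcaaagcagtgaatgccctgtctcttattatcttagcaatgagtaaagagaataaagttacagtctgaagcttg
H2-DMb1, chr17:34152941-34153240, plus strand: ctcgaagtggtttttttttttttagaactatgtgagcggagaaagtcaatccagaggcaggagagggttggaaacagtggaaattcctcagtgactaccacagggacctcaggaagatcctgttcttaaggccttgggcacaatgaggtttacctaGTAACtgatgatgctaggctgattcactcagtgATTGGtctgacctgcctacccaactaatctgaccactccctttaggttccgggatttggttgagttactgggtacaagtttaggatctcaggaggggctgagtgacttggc
H2-DMb2, chr17:34144999-34145298, plus strand: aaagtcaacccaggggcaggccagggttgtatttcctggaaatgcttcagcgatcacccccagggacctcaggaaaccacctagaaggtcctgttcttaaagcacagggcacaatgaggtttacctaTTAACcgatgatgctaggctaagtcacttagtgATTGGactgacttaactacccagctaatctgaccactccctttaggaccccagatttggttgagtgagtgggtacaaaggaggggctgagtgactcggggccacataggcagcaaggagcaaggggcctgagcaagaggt

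The pair was present in 3 windows. The X core began 81 bases before the start site in *H2-Aa*, 91 in *H2-Eb1* and 94 in *H2-DMb1*. The bases between X core and ATTGG numbered 28, 27 and 28. Of 32851 promoter windows in the table, 937 (2.85%) held the pair, 37.4% held ATTGG and 84.8% held GNAAC, so only the spaced pair is uncommon. *H2-DMb2* lies next to *H2-DMb1* and is its close copy. Its best ungapped match to the 38-base stretch of *H2-DMb1* from the X core through ATTGG had 33 identical bases. Counting from 1 at the first base of the *H2-DMb1* X core, with the *H2-DMb1* base first, the substitutions were G1T, T6C, G21A, T23G and C29T. G1T falls in the X core, ATTGG was identical, and the *H2-DMb2* window therefore lacked the searched pair. Neither *H2-DMa* window held the pair. The windows were not matched to single transcripts of these genes. None of the 6 windows held the letter pattern of interferon-stimulated response elements (GAAA, any 2 bases, GAAA), which 3.44% of all windows held. TTCNNNGAA, the pattern of STAT sites, occurred in the *H2-DMb2* window and in 8.30% of all windows. A match is a description of letters, and binding was not measured.

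Class II mRNAs were present at low to moderate levels in WT BMDMs under HSS. Per transcript length, in TPM (counts scaled to transcript length and to the library's total), the order in the WT libraries was *Cd74* (63.9 ± 12.04, SD, n = 3), *H2-Ab1* (28.6 ± 8.15), *H2-DMb1* (23.01 ± 2.27), *H2-DMa* (18.0 ± 1.98), *H2-Aa* (11.4 ± 4.02), *H2-Eb1* (11.2 ± 2.52), *Ciita* (1.29 ± 0.373) and *H2-DMb2* (1.03 ± 0.151). Neighbours whose library values overlapped were *H2-Ab1* and *H2-DMb1*, *H2-Aa* and *H2-Eb1*, and *Ciita* and *H2-DMb2*. The invariant chain was thus the most abundant class II mRNA by TPM. The transactivator was among the scarcest. *H2-DMa*, with no spaced pair in either window, lay above *H2-Aa* and *H2-Eb1*, whose windows held it. The main *H2-DMb2* transcript, with 71.9% of the gene's counts in WT, begins at 34362281. Those that begin at 34364174 and 34364245 took 6.85% and 21.2%. *H2-DMb1* was at 20.4 to 24.6 TPM in the WT libraries, and its copy *H2-DMb2* was at 0.856 to 1.12 TPM. Of the 31-base words in the transcripts of these copies, 31.4% of those of *H2-DMb1* and 35.7% of those of *H2-DMb2* also occurred in other genes, mostly in each other, so the split of counts between them is uncertain.

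The *Drp1*KO libraries showed no difference from WT that passed the test in *Ciita* or in any class II mRNA. None of the 8 genes passed an adjusted p of 0.05, a threshold that 3.36% of all tested genes passed (edgeR's quasi-likelihood test, Benjamini-Hochberg adjustment). By an unadjusted p under 0.05, 1 of the 8 passed (*H2-DMa*, higher), against 16.4% of all genes (9.03% higher and 7.39% lower). By the fold change and unadjusted p criteria of the study's methods, the same gene passed, against 12.7% of all genes (7.19% higher and 5.48% lower). By adjusted p, none passed in DESeq2 or in any other setting tried. The median log2 fold change of the 8 genes was -0.04, and that of all tested genes was 0.00460. The median of the 8 genes ranged from -0.12 to 0.13 with 1 library left out, and was 0.11 on length-scaled counts. In bulk RNA, fewer cells that express a gene and less of its RNA per cell cannot be told apart.

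*Ciita* was at 3.10, 5.17 and 4.36 CPM in the WT libraries and at 3.04, 3.39 and 5.15 CPM in the *Drp1*KO libraries. The groups overlapped almost completely, and WT library 2 and *Drp1*KO library 3 were the high ones. The log2 fold change was -0.12, with a 95% interval from -0.69 to 0.45 (adjusted p = 0.893). On the linear scale that interval runs from 0.618-fold to 1.37-fold. Leaving out *Drp1*KO library 3 gave -0.38 and leaving out WT library 1 gave -0.29. The value was above 0 on the length-scaled counts, at 0.10, and without WT library 2 (0.036) or *Drp1*KO library 1 (0.0089).

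The I-A chains differed widely between libraries, and neither passed the test between genotypes. *H2-Aa* was at 5.17, 11.1 and 7.91 CPM in WT and at 9.35, 7.67 and 16.04 CPM in *Drp1*KO BMDMs. Its highest and lowest libraries differed by 3.10-fold, and the log2 fold change of 0.45 had an interval from -0.23 to 1.14 (adjusted p = 0.538). Its size rested on single libraries, at 0.076 without *Drp1*KO library 3, 0.22 without WT library 1 and 0.74 without WT library 2. *H2-Ab1*, its β chain partner, was at 19.97, 34.1 and 21.2 CPM in WT and at 22.2, 19.7 and 30.6 CPM in *Drp1*KO BMDMs. The 2 groups spanned nearly the same range, and the log2 fold change was -0.05 (-0.54 to 0.44, adjusted p = 0.958); leaving out WT library 2 gave 0.22, and leaving out *Drp1*KO library 2 gave 0.083.

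*H2-Eb1*, the I-E β chain, was at 6.25, 8.85 and 9.13 CPM in WT and at 6.04, 5.53 and 12.1 CPM in *Drp1*KO BMDMs. *Drp1*KO library 3 lay above every WT library and the other two lay below, so the spread was wide and the log2 fold change was -0.03 (-0.67 to 0.61, adjusted p = 0.985). Its direction was not fixed, at 0.12 on the length-scaled counts and 0.027 to 0.19 on leaving out any 1 library other than WT library 1 (-0.18) and *Drp1*KO library 3 (-0.48, adjusted p = 0.343). On coding transcripts alone it was -0.63 (adjusted p = 0.253). The I-E α chain gene, *H2-Ea*, which is defective in the C57BL/6 strain, had 0 counts in all 6 libraries, which allows up to 0.0917 to 0.136 CPM.

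*Cd74*, the invariant chain, was at 41.4, 65.5 and 57.8 CPM in WT and at 41.9, 33.6 and 64.3 CPM in *Drp1*KO BMDMs. Its mean was lower in *Drp1*KO (46.6 ± 15.9 against 54.9 ± 12.3 CPM), but the groups overlapped and the log2 fold change was -0.24 (-0.75 to 0.28, adjusted p = 0.701). It was below 0 in every setting tried, but its size ranged from -0.54 (adjusted p = 0.227) without *Drp1*KO library 3 to -0.020 on length-scaled counts. Leaving out WT library 1 gave -0.40, leaving out WT library 2 gave -0.10, and leaving out *Drp1*KO library 2 gave -0.040.

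Of the peptide-exchange genes, *H2-DMa* and *H2-DMb1* varied less between libraries than the genes above, and *H2-DMa* came nearest to a difference. It was at 8.80, 8.66 and 9.75 CPM in WT and at 11.99, 10.3 and 13.1 CPM in *Drp1*KO BMDMs. Every *Drp1*KO library was higher than every WT library, the only case of this among the 8 genes and a pattern seen in 21.9% of all tested genes (11.7% higher and 10.3% lower). The log2 fold change was 0.38 (0.06 to 0.69), and the adjusted p was 0.206. With libraries of the same number paired as a block, the adjusted p was 0.0524, and with 1 library left out it was 0.215 to 0.511. Among its 31-base words, 9.23% were shared with *Brd2*, whose gene it overlaps.

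*H2-DMb1* was at 21.6, 19.6 and 18.9 CPM in WT and at 23.4, 21.4 and 21.5 CPM in *Drp1*KO BMDMs, a log2 fold change of 0.14 (-0.10 to 0.38, adjusted p = 0.601). This is the tightest interval of the 8 genes, but the value was 0.31 on length-scaled counts (adjusted p = 0.336) and 0.052 on coding transcripts alone. *H2-DMb2* was at 1.12, 0.862 and 1.06 CPM in WT and at 0.817, 1.253 and 0.675 CPM in *Drp1*KO BMDMs, from 80 and 81 counts in all. Its log2 fold change was -0.14, and its interval from -0.91 to 0.63 was the widest (adjusted p = 0.916). With the counts of both genes added, which removes the uncertain split, the log2 fold change was 0.13 (adjusted p = 0.639).

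**Figure D1:**
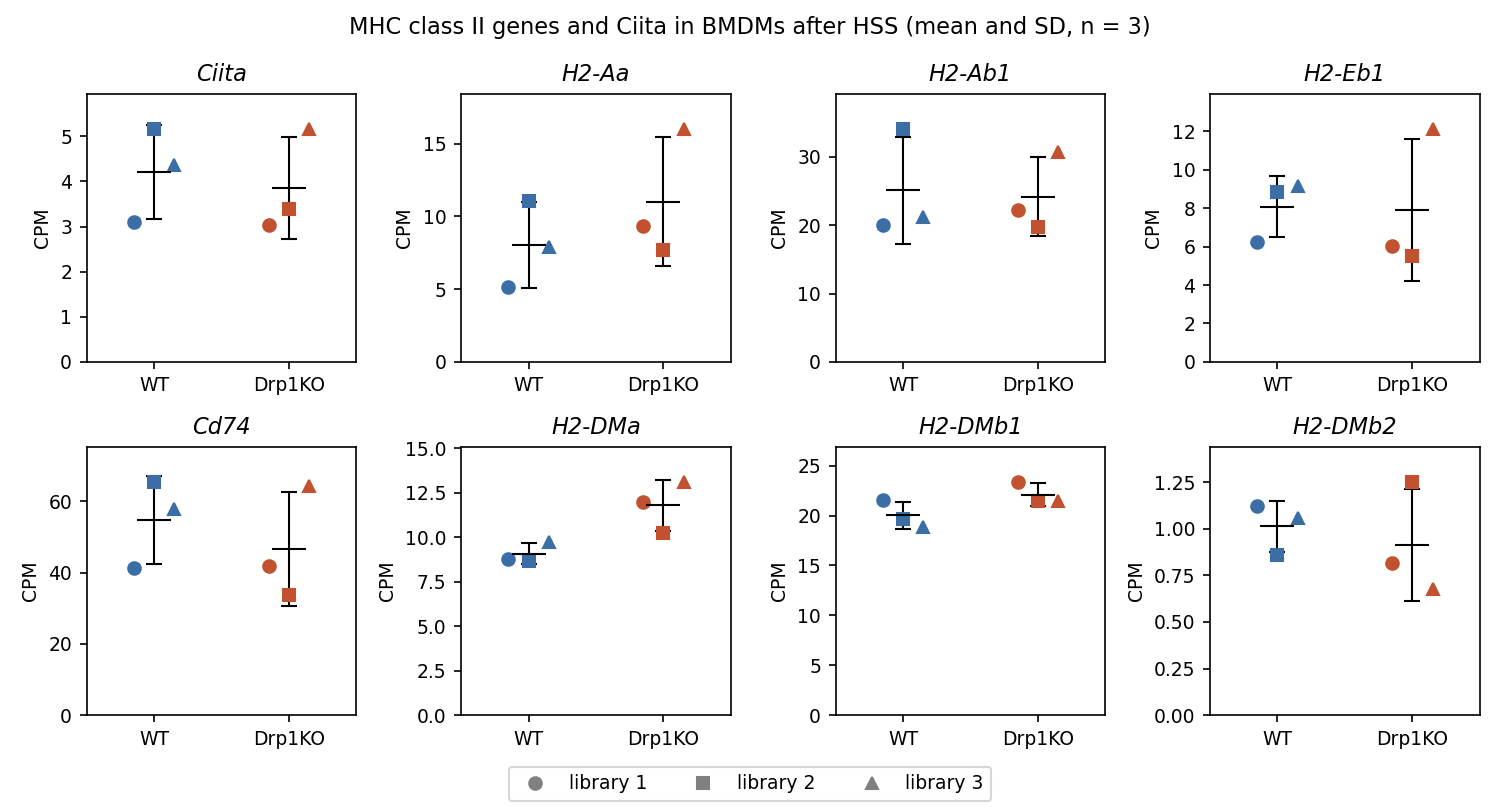
Level of each of the 8 genes (CPM, linear axis from 0) in the 3 WT and 3 Drp1KO libraries, with symbols for the library number and bars for the mean and SD. The groups overlap in 7 panels; in H2-DMa the 3 Drp1KO libraries, at 10.3 to 13.1 CPM, lie above the WT libraries, at 8.66 to 9.75 CPM.

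*Ciita*, the classical chains and *Cd74* varied widely between libraries of a genotype. Their coefficients of variation within a genotype were 19.6% to 46.6%, against 5.06% to 12.2% for *H2-DMa* and *H2-DMb1*. Those of the scarce *H2-DMb2* were 13.3% in WT and 32.9% in *Drp1*KO BMDMs. The highest values of all 5 genes but *H2-Eb1* in WT fell in WT library 2, and the highest in *Drp1*KO fell in library 3 for all 5. Over the 6 libraries, Pearson's r of log2 CPM with *Ciita* was 0.903 for *Cd74*, 0.902 for *H2-Eb1*, 0.835 for *H2-Ab1* and 0.734 for *H2-Aa*. It was 0.05 for *H2-DMa*, -0.64 for *H2-DMb1* and -0.53 for *H2-DMb2*. Spearman's rho was 0.771, 0.657, 0.600 and 0.600 for the first 4, in that order. Among the 7 relations the smallest exact permutation p was 0.0611, for *Cd74*, and 0.149 after adjustment, so none passed. Without the 2 libraries farthest from the *Ciita* median, WT library 2 and *Drp1*KO library 3, r was 0.873 for *H2-Eb1*, 0.730 for *Cd74*, 0.184 for *H2-Aa* and 0.0423 for *H2-Ab1*. In the same 4 libraries it was -0.945 for *H2-DMb1*, -0.24 for *H2-DMa* and 0.25 for *H2-DMb2*. The likeness of the I-A chains to *Ciita* thus rested on those libraries. With 3 libraries a genotype, no within-genotype value was computed.

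**Figure D2:**
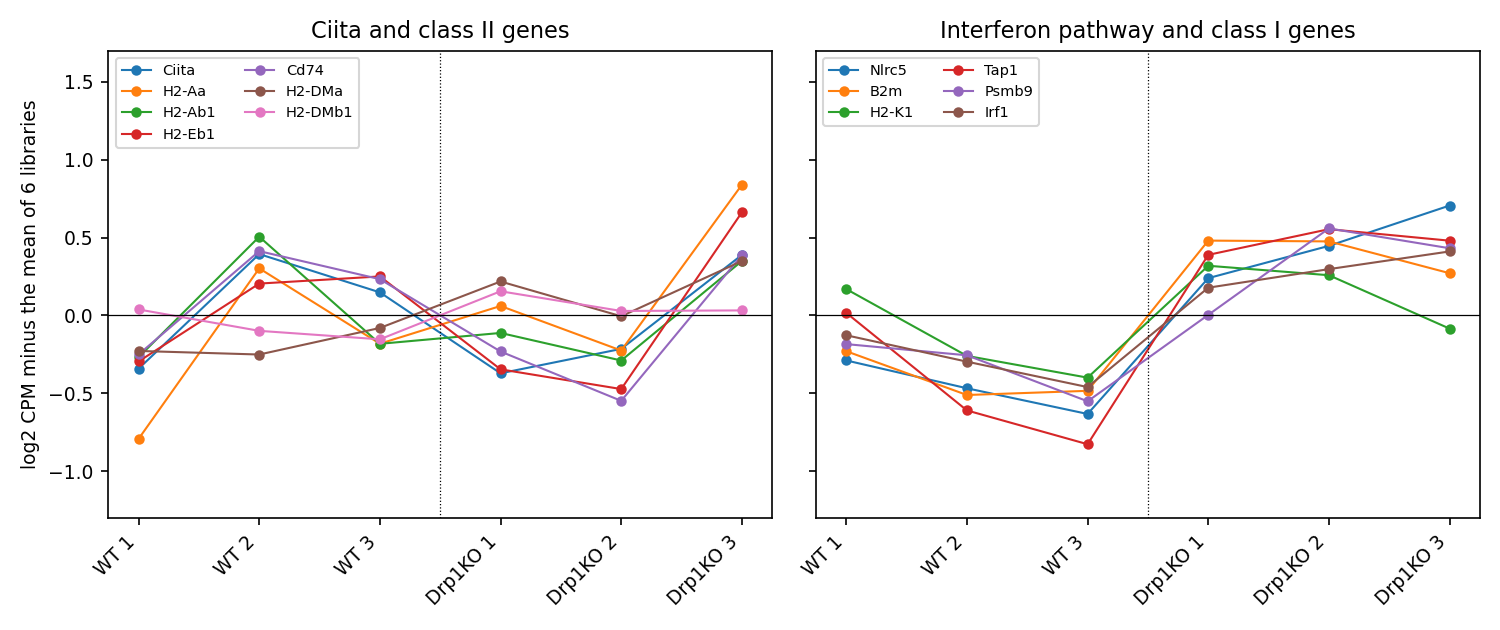
Log2 CPM minus the gene's mean over the 6 libraries, for Ciita and 6 class II genes (left) and for interferon pathway and class I genes (right); lines only join the points of a gene, and the dotted line divides the genotypes. On the left Ciita, H2-Aa, H2-Ab1 and Cd74 are highest within each genotype in WT 2 and Drp1KO 3, H2-Eb1 in WT 3 and Drp1KO 3, and H2-DMa and H2-DMb1 vary less; on the right every Drp1KO value of Irf1, Nlrc5, B2m, Tap1 and Psmb9 lies above every WT value, and those of H2-K1 overlap.

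The genes most like the average profile of the classical chains and *Cd74* were ranked by Pearson's r over the 6 libraries, among the 12241 genes whose mean reached 1 CPM. The first 5 were *Daam1* (r = 0.991), *Elapor2* (0.983), *Or1f19* (0.975), *Apc2* (0.975) and *Obox3* (0.973). The 6 points share their libraries, and these values are a description only. Of the factors on class II promoters, *Nfyb* ranked highest, at r = 0.845 and place 113.

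Of 10 listed genes of proteins that seat CIITA on class II promoters or are recruited there, 0 passed the test in either direction by edgeR, by DESeq2 or in the other settings run, and 0 had an unadjusted p under 0.05. The median log2 fold change was -0.07, and 2 of the 10 were above 0. *Ep300* and *Crebbp*, acetyltransferases that CIITA recruits, and *Creb1* had log2 fold changes of -0.04, -0.10 and -0.07. *Rfx5*, *Rfxap* and *Rfxank*, the RFX subunits, had log2 fold changes of -0.04, -0.16 and -0.08. Per transcript length *Rfx5* was lower in every *Drp1*KO library, at 5.33, 4.70 and 4.75 TPM in WT and at 3.49, 2.85 and 2.80 TPM in *Drp1*KO BMDMs, while its CPM overlapped, and it passed in none of the other settings, length-scaled counts included. *Nfya*, an NF-Y subunit, was at 133, 123.4 and 129 CPM in WT and at 116, 122.7 and 112 CPM in *Drp1*KO BMDMs (log2 fold change -0.14, adjusted p = 0.508). It was lower in every *Drp1*KO library, the 1 factor of the 10 whose groups did not overlap, against 21.9% of all genes.

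Upstream of *Ciita*, *Irf1* of the IFN-γ route rose in *Drp1*KO BMDMs. Of 13 inducers and inhibitors read here, 12 were tested, 1 rose in *Drp1*KO BMDMs and none fell. Of all tested genes, 2.29% rose and 1.06% fell. *Irf1*, which acts on the IFN-γ–responsive *Ciita* promoter, was at 45.1, 40.1 and 35.8 CPM in WT and at 55.7, 60.6 and 65.5 CPM in *Drp1*KO BMDMs (log2 fold change 0.59, adjusted p = 0.0214). Each *Drp1*KO library was above every WT library. The call was lost on length-scaled counts (0.0777) and on leaving out WT library 2 (0.142) or 3 (0.125) or *Drp1*KO library 2 (0.0859) or 3 (0.0679). With the libraries paired, where 12.0% of all genes passed, 3 genes of the list did: *Irf1* and *Jak2* higher (*Jak2* log2 fold change 0.26, adjusted p = 0.0460) and *Irf2*, a relative of *Irf1*, lower (paired adjusted p = 0.0121). *Irf2* had -0.35 in the unpaired fit (adjusted p = 0.0968), and it was also called lower by DESeq2 (0.0305), on length-scaled counts (0.00643), without WT library 1 (0.0444) and without replicate 1 of both groups (0.0183).

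IFN-γ itself was not detectable, since *Ifng* had at most 1 count in any library. Its receptor genes *Ifngr1* and *Ifngr2* had log2 fold changes of -0.21 (adjusted p = 0.311) and -0.11 (0.667), and *Jak1*, a kinase of the receptor, had -0.11 (0.716). *Ifngr1* was lower in every *Drp1*KO library, a pattern of 10.3% of all genes, and it passed without replicate 1 of both groups (0.0323). *Socs1*, an inhibitor of JAK–STAT signalling, was at 0.647, 0.225 and 0.170 CPM in WT and at 0.681, 0.947 and 0.920 CPM in *Drp1*KO BMDMs (log2 fold change 1.33, adjusted p = 0.225). The groups did not overlap, from 5 to 31 counts per library, and it passed without WT library 1 (0.0432) and without replicate 1 of both groups (0.0189). *Spi1*, *Irf8* and *Irf4*, factors of the myeloid and dendritic *Ciita* promoters, had adjusted p of 0.857, 0.988 and 0.639.

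The class I pathway, run by a related transactivator of the same protein family, stood beside class II with different values. *Nlrc5*, the class I transactivator, was at 31.4, 27.8 and 24.8 CPM in WT and at 45.4, 52.4 and 62.7 CPM in *Drp1*KO BMDMs. It rose with a log2 fold change of 0.94 (0.63 to 1.24, adjusted p = 0.00595). Of the 12 genes of the class I list, 3 rose and none fell, against 2.29% and 1.06% of all genes, and all 12 had log2 fold changes above 0, with a median of 0.45. *B2m*, the light chain shared by class I molecules, rose from 2159 ± 239 to 3799 ± 307 CPM (log2 fold change 0.82, adjusted p = 0.00536). *Tap1*, a peptide transporter subunit, rose from 93.5 ± 29.8 to 175 ± 9.98 CPM (0.91, adjusted p = 0.0273). The class I heavy chains *H2-D1* and *H2-K1* had 0.09 (adjusted p = 0.855) and 0.32 (0.367), and the loading factor *Tapbp* and the peptide trimmer *Erap1* had 0.49 (0.0780) and 0.37 (0.101). With libraries paired, 9 of the 12 passed, against 12.0% of all genes, and DESeq2 called 6, against 6.24% of all genes. With 1 library left out, 0 passed without WT library 2 (*Nlrc5* 0.0552, *B2m* 0.0681, *Tap1* 0.174), 1 without WT library 3 (*B2m* 0.0552, *Tap1* 0.110), 2 without *Drp1*KO library 2 (*Tap1* 0.116), 2 without *Drp1*KO library 3 (*Tap1* 0.0653), 4 without *Drp1*KO library 1 and 7 without WT library 1.

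**Figure D3:**
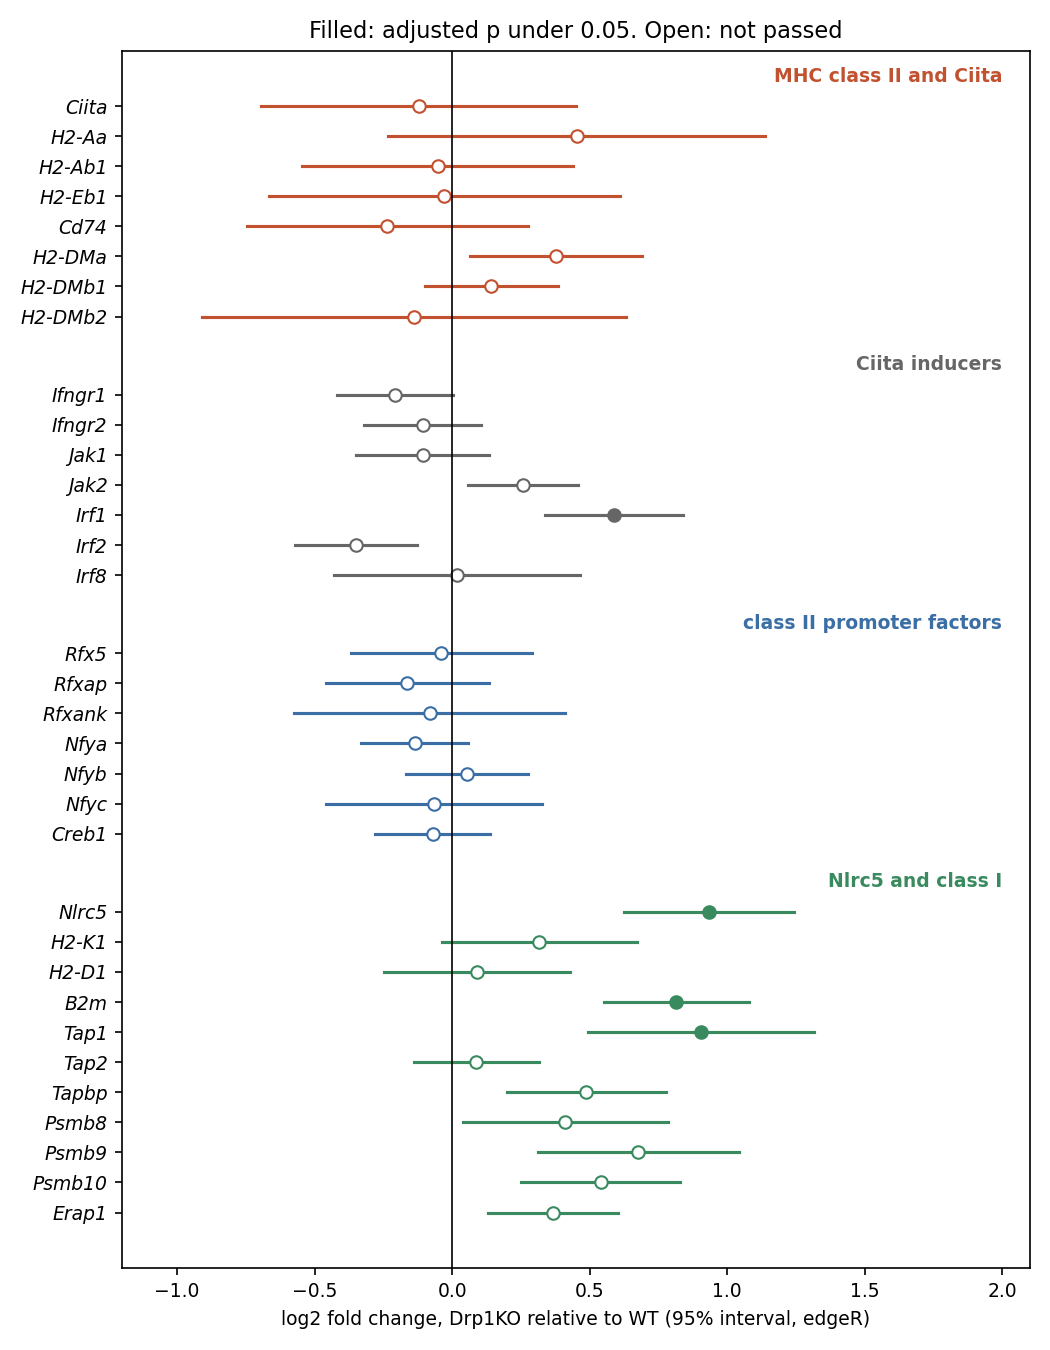
Log2 fold change of Drp1KO relative to WT with its 95% interval (edgeR), for Ciita and the class II genes, Ciita inducers, class II promoter factors and the Nlrc5 and class I genes; filled points have an adjusted p under 0.05. Filled points are Irf1 (0.59), Nlrc5 (0.94), B2m (0.82) and Tap1 (0.91); every class II and promoter factor point is open.

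To compare the transactivators within a library, the ratio of *Ciita* to *Nlrc5* counts was taken, a comparison chosen after the values were seen. The ratio was 0.0988, 0.186 and 0.176 in WT and 0.0671, 0.0648 and 0.0822 in *Drp1*KO BMDMs. Every *Drp1*KO library was lower, with a difference of -1.06 in mean log2 ratio. The exact two-sided permutation p was 0.1, the smallest that 3 against 3 allows, and 0.2 adjusted over 3 ratios. Most of this difference restates the higher *Nlrc5* (log2 fold change 0.94), as *Ciita* had -0.12. The ratio of *Cd74* to *B2m* differed by -1.08 and that of *H2-Ab1* to *B2m* by -0.85 on the log2 scale, and in both the groups overlapped (exact permutation p = 0.2 each). Between libraries of the same number both were lower in *Drp1*KO in every pair. *B2m* itself was higher (log2 fold change 0.82), and no paired test of the ratios was run.

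Class II genes and class I processing genes lie side by side on chromosome 17. On GRCm39 the class II region from *H2-Oa* to *H2-Ea* spans chr17:34311314-34563618, and it also holds the class I processing genes *Psmb9*, *Tap1*, *Psmb8* and *Tap2*. Of 31 annotated genes, 16 had transcripts in the deposited tables and 14 were tested. Only *Tap1* passed the test, higher in *Drp1*KO, but it did not pass when WT library 2 or 3 or *Drp1*KO library 2 or 3 was left out (0.0653 to 0.174). *H2-DMb1*, the class II gene nearest to this block on its left, had a log2 fold change of 0.14. *Psmb9*, an immunoproteasome subunit that starts beside *Tap1*, was at 13.7, 13.01 and 10.6 CPM in WT and at 15.6, 22.9 and 20.9 CPM in *Drp1*KO BMDMs (0.68, adjusted p = 0.0561). With libraries paired, *Psmb9* (0.0111) and *Psmb8* (0.0108), another immunoproteasome subunit, passed beside *Tap1*. *H2-Aa* and *H2-Eb1* overlap on opposite strands at their annotated ends. *Ciita* is on chromosome 16 and *Cd74* on chromosome 18.

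**Figure D4:**
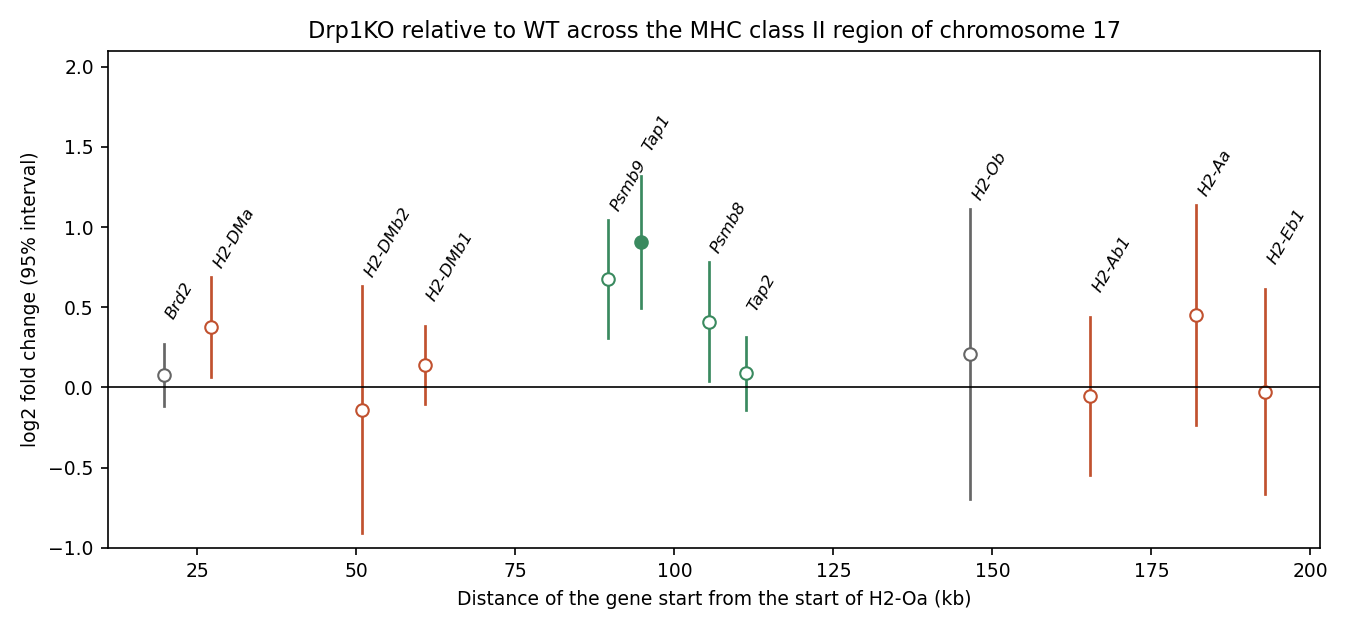
Log2 fold change with 95% interval (edgeR) of the tested genes of the MHC class II region against the distance of the gene's leftmost base from that of H2-Oa in kb; H2-Oa itself and a pseudogene, both near the floor, are left out. Class II genes are drawn in orange and class I processing genes in green; the filled point, Tap1 at 0.91, is the 1 gene past the adjusted threshold.

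Of the 4 other class II genes, which are normally strongest in B cells and dendritic cells, 2 were tested and none passed. *H2-Ob*, the β chain of the H2-M inhibitor H2-O, was at 0.431 to 0.716 CPM in WT and 0.499 to 0.767 CPM in *Drp1*KO BMDMs (adjusted p = 0.878). *H2-Oa* was at or near the floor, at 0.112 to 0.216 CPM in WT and 0 to 0.136 CPM in *Drp1*KO BMDMs (adjusted p = 0.450). *H2-Eb2* was at 0 to 0.122 CPM.

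Genes that prepare peptides or trim the invariant chain did not pass the test, 0 of 7. The most changed was *Ctss*, cathepsin S, which removes the invariant chain in antigen-presenting cells, at 5878, 5052 and 4925 CPM in WT and at 7555, 6516 and 6539 CPM in *Drp1*KO BMDMs. Each *Drp1*KO library was higher (log2 fold change 0.38, adjusted p = 0.132), and it passed with libraries paired (0.00544), by DESeq2 (0.0391) and without replicate 1 of both groups (0.0300). Cathepsins B and D (*Ctsb*, *Ctsd*), which with *Ctss* were the most abundant of the list, were at 0.16 (0.590) and 0.08 (0.857). Cathepsin L (*Ctsl*) was at 0.24 (adjusted p = 0.404), and *Lgmn* and *Ifi30*, a protease and a thiol reductase of the endosome, were at 0.01 and -0.03.

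Of 6 genes of class II turnover and trafficking, 0 passed the test. *Marchf1*, the ubiquitin ligase that marks class II for degradation, was at 187, 166 and 164 CPM in WT and at 193, 197 and 206 CPM in *Drp1*KO BMDMs (log2 fold change 0.21, adjusted p = 0.298). It passed without replicate 1 of both groups (0.0422). Its relative *Marchf8* was at 69.5 ± 5.04 and 81.0 ± 4.66 CPM (0.22, adjusted p = 0.286). *Cd83*, which counters MARCH1, was at 37.5 ± 3.05 and 45.7 ± 3.24 CPM (0.29, adjusted p = 0.200). The groups did not overlap in 5 of the 6 genes, 4 higher and *Ap2m1*, a clathrin adaptor subunit, lower, against 21.9% of all genes. With libraries paired, *Ap2m1* passed (-0.30 in the unpaired fit, paired adjusted p = 0.0183).

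Of 6 costimulatory and checkpoint ligands, 1 passed the test, against 3.36% of all genes. *Pdcd1lg2*, which encodes PD-L2, was at 0.129, 0.562 and 0.409 CPM in WT and at 1.09, 1.56 and 3.01 CPM in *Drp1*KO BMDMs (log2 fold change 2.34, adjusted p = 0.0395). Counts were few, and the call was lost without any 1 library except *Drp1*KO library 1 (0.0603 to 0.147), in limma-voom (0.0615) and on length-scaled counts (0.0524). The PD-L1 gene *Cd274* was at 769, 462 and 444 CPM in WT and at 921, 848 and 680 CPM in *Drp1*KO BMDMs (0.55, adjusted p = 0.204). With libraries paired, 3 passed, against 12.0% of all genes: *Pdcd1lg2*, *Cd274* (0.00490) and *Cd80* (0.0265), whose product costimulates through CD28. *Cd86*, *Cd40* and *Icosl* had adjusted p of 0.614, 0.381 and 0.886.

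Transcript shares within the 8 genes were read beside those of all transcripts. The 8 genes have 43 transcripts in the tables, of which 40 had counts. The share of its gene's counts was separated between genotypes in 6 transcripts (5 lower in *Drp1*KO and 1 higher), and these were picked out after the values were seen. Of 69259 transcripts with counts in tested genes that have more than 1 such transcript, 6.79% were separated lower and 6.92% higher. Over both directions together, 6 of 40 is near the share among all transcripts. The transcript shares are kallisto's estimates from overlapping transcripts, and 3 libraries against 3 cannot give an exact permutation p below 0.1.

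*Cd74* makes a short and a long form of the invariant chain, the long one holding an extra exon whose product inhibits cysteine proteases. The long form (9 exons) took 19.3%, 27.8% and 19.1% of *Cd74* counts in WT and 24.2%, 27.6% and 28.3% in *Drp1*KO BMDMs. The groups overlapped, and the difference of 4.62 percentage points had an exact permutation p of 0.3. The short form (8 exons) took 74.0%, 72.2% and 80.6% in WT and 64.8%, 53.3% and 53.7% in *Drp1*KO BMDMs, with no overlap. The counterpart was a transcript annotated as holding a retained intron, at 6.74%, 0% and 0.350% in WT and 11.0%, 19.1% and 18.0% in *Drp1*KO BMDMs (exact permutation p = 0.1). All *Drp1*KO libraries were above all WT libraries. Among the 6929 genes that reached 1 CPM and had counts on such a transcript, 7.10% were separated in that direction and 6.34% in the other, and over all their counts the retained share was 3.38% to 4.01% in WT and 3.45% to 3.98% in *Drp1*KO BMDMs.

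In *H2-Eb1*, coding transcripts took 53.8%, 59.5% and 48.4% of counts in WT and 42.9%, 38.1% and 30.7% in *Drp1*KO BMDMs. All *Drp1*KO libraries were lower, by 16.6 percentage points on average (exact permutation p = 0.1), a pattern seen in 9.02% of 6918 genes. The remaining counts fell on a retained-intron and a nonsense-mediated-decay transcript, each overlapping between genotypes. With protein-coding transcripts alone, the log2 fold change was -0.63 for *H2-Eb1* (adjusted p = 0.253) and -0.47 for *Cd74* (0.371), and neither passed.

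In *H2-DMa*, whose total was higher in every *Drp1*KO library, 1 of the 3 coding transcripts went the other way. It took 9.77%, 19.2% and 15.9% of *H2-DMa* counts in WT and 3.94% to 6.38% in the *Drp1*KO libraries. Its mean level was 1.36 ± 0.437 CPM in the WT libraries against 0.595 ± 0.106 CPM in the others, from 10.4 to 45.6 estimated counts per library. The other separated transcripts were one of *H2-DMa* with no defined coding sequence, at 2.02% to 4.60% in WT and 0.634% to 1.77% in *Drp1*KO BMDMs, and a retained-intron one of *H2-Ab1*, at 0.476% to 0.582% and 0.200% to 0.397%. Both rested on few counts, at most 12.2 per library.

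**Figure D5:**
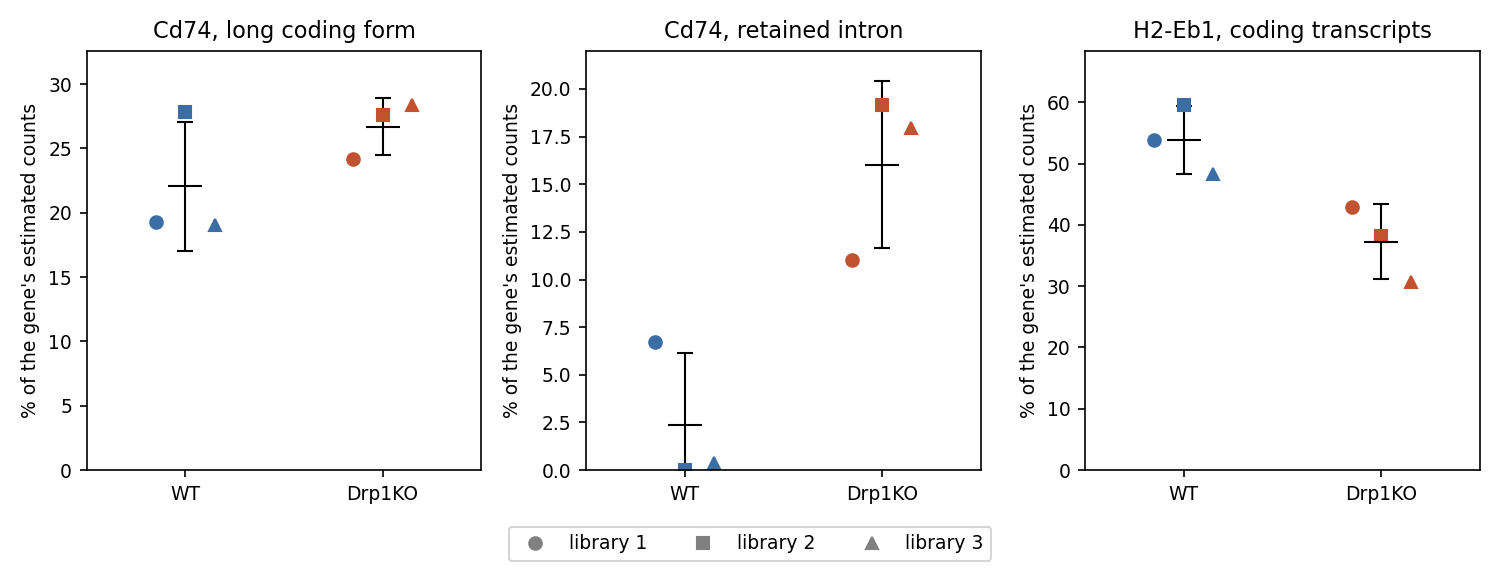
Share of the gene's estimated counts (%, axis from 0) on the long coding form of Cd74, on the retained-intron transcript of Cd74 and on the coding transcripts of H2-Eb1, in the 3 WT and 3 Drp1KO libraries with mean and SD. The long form overlaps between genotypes; the retained-intron share is higher in every Drp1KO library (11.0% to 19.1% against 0% to 6.74%) and the H2-Eb1 coding share lower (30.7% to 42.9% against 48.4% to 59.5%).

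*Ciita* has several promoters, used by different cell types, and its deposited transcripts begin in 3 clusters on GRCm39 chromosome 16. The middle cluster, at 10306042 to 10306143, took 81.8% ± 7.61 of *Ciita* counts in WT and 84.3% ± 5.75 in *Drp1*KO BMDMs. The upstream cluster, at 10297923 to 10298028, took 12.95% ± 5.41 and 5.28% ± 4.77, with overlap. The downstream cluster, at 10307610 to 10307647, took 6.47%, 6.98% and 2.34% in WT and 11.6%, 10.1% and 9.51% in *Drp1*KO BMDMs. All *Drp1*KO libraries were higher (exact permutation p = 0.1), but these shares rest on 3 to 15.9 estimated counts per library. The main transcript of the middle cluster took 77.2% ± 4.14 and 79.8% ± 7.62. Which cluster matches which named promoter is not given in the sources used here.

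Markers of other cells that express class II were read beside these values. Of 9 dendritic cell markers, 7 were tested and 0 passed. Their median log2 fold change was -0.45, against 0.00460 for all tested genes, and 2 of the 7 were above 0. By the fold change and unadjusted p criteria, 2 were lower, against 5.48% of all genes: *Zbtb46*, a factor of classical dendritic cells (log2 fold change -0.77, adjusted p = 0.228), and *Itgax*, an integrin gene that macrophages also express (-0.45, adjusted p = 0.285). *Zbtb46* and *Flt3*, a growth factor receptor gene, were lower in every *Drp1*KO library than in any WT library, a pattern of 10.3% of all genes. The summed level of the list was 48.9 to 67.8 CPM in WT and 35.4 to 55.8 CPM in *Drp1*KO BMDMs, most of it *Itgax*, and *Cd209a* was at 0 in all libraries. Of 7 B cell markers read here, 5 were tested and 0 passed. Their median log2 fold change was 0.02, and 3 of the 5 were above 0. Their sum was 37.8 to 48.8 CPM in WT and 35.9 to 42.0 CPM in *Drp1*KO BMDMs, most of it *Cd22*, with *Blk* at 0 in every library. *Cd79b*, a chain of the B cell receptor complex, was higher by the fold change and unadjusted p criteria (log2 fold change 0.56, adjusted p = 0.232, against 7.19% of all genes), and it passed without WT library 1 (0.0495) and without replicate 1 of both groups (0.0159). Of 8 macrophage markers, *Fcgr1* rose (log2 fold change 1.34, adjusted p = 0.000322), and *Csf1r* (-0.52, 0.0340) and *Mertk* (-0.52, 0.0236) fell, against 2.29% of all genes higher and 1.06% lower. The *Csf1r* call was lost without WT library 1 (0.0635), 2 (0.133) or 3 (0.133), or *Drp1*KO library 2 (0.125) or 3 (0.0788), and on length-scaled counts (0.207). The *Mertk* call was lost without WT library 2 (0.101) or 3 (0.118) or *Drp1*KO library 2 (0.0840) or 3 (0.0621). The part of any such cells in the class II values was not tested.

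Markers of cells without a classical role in class II presentation were also read. The summed CPM of T cell and NK cell markers was 311.5 to 328 (WT) and 128 to 252 (*Drp1*KO), nearly all of it *Cd4*. Of the 5 tested, 0 passed and 2 had log2 fold changes above 0. The CD3 chain genes *Cd3d* and *Cd3g* overlapped between genotypes, with WT means of 4.23 and 2.54 CPM against 3.49 and 1.73 CPM. *Cd8a* was scarce and higher in every *Drp1*KO library (log2 fold change 0.45, adjusted p = 0.448). The sum is thus mostly a reading of *Cd4*, and a difference in T cell content was not tested. *Cd4* was at 313, 319 and 303 CPM in WT and at 137, 245 and 119 CPM in *Drp1*KO BMDMs (log2 fold change -0.90, adjusted p = 0.0595), while *Ncr1* was at 0. *Cd4* passed in 5 of 17 other settings, with libraries paired (0.00228), by DESeq2 (0.000933), in limma-voom (0.0360), with no filter beyond 1 count (0.000834) and without *Drp1*KO library 2 (0.00280). Neutrophil markers summed to 51.4 to 61.6 CPM and 59.2 to 82.9 CPM, with *Ly6g* at 0, and 0 of the 5 tested passed. *S100a8* (adjusted p = 0.122) passed in 5 of 17 other settings and *S100a9* (adjusted p = 0.139) in 4, among them the paired fit (0.00145 and 7.85e-05) and the fit without *Drp1*KO library 1 (0.00459 and 0.0380). Fibroblast markers summed to 1.99 to 3.45 CPM and 2.05 to 2.36 CPM.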

How the data were processed

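Per the labels and methods, the authors quantified poly(A) RNA with kallisto 0.46.1 on Ensembl GRCm39 cDNA, compared genotypes with DESeq2 (1.44.0 in the labels), and deposited per library the estimated counts, the lengths and the TPM of 116873 transcripts. The deposited estimated counts are not scaled between libraries. Here 116159 transcripts (99.4%) were matched to the GENCODE GRCm39 annotation, and their counts were added per gene and rounded; 0.542% to 0.575% of counts lay on the others. TPM served for levels per length.

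*Drp1*KO was compared with WT by edgeR 4.0.16 (R 4.3.3; TMM, at least 10 counts in total, quasi-likelihood test, Benjamini-Hochberg adjustment over all genes). The code was tested on simulated data. Alternatives used limma 3.58.1, DESeq2 1.42.0, other scalings, filters and transcript sets, the replicate number as a block, and leaving out each library. Libraries of the same number deviated together (r = 0.510, 0.204 and 0.298 over 12248 genes), so the numbers were taken to pair libraries; the pairing comes from the data, not from the labels, and WT library 2 was closer to *Drp1*KO library 3 (r = 0.326) than to *Drp1*KO library 2. No libraries were copies of each other (chi-square per degree of freedom 11.2 to 47.0). P-values measure the spread between these libraries, which may be partly technical, and intervals and floors cover these libraries only. The 8 genes and all gene lists were chosen with earlier results of these data known. Named genes are the 8 genes, those of each list that passed the test plus up to 4 with the highest mean level, and the 5 genes most alike; further genes are named for their role, with their values already seen. Whether kallisto was given the strand is not stated in the sources used here, so genes that overlap on opposite strands are uncertain. Some genes are not reported here and were taken out of the lists, while other list members enter the counts without being named.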

Additional observations from a re-analysis of the deposited data

How the results depend on the processing

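No class II gene or *Ciita* passed an adjusted p of 0.05 in any alternative run. With the replicate number as a block, the adjusted p of *H2-DMa* was 0.0524, its lowest in any setting, and the block changed no call among the 8 genes. Over all genes the calls numbered 621, against 2212 with the block, 1155 by DESeq2, 1065 with no filter beyond 1 count, 1880 without replicate 1 of both groups (added after seeing the data) and 181 to 904 with 1 library left out, the lowest without WT replicate 2.

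The count of genes past the fold change and unadjusted p criteria of the study's methods was 1. It was 0 on length-scaled counts and without replicate 1 of both groups, and 0 to 2 with 1 library left out. The gene was *H2-DMa* wherever it was 1, except on protein-coding transcripts, where it was *H2-Eb1* (log2 fold change -0.63). Without *Drp1*KO replicate 3 the 2 were *Cd74* (-0.54) and *H2-Eb1* (-0.48), both lower, and *H2-DMa* was not among them. The count of genes with no overlap between genotypes was 1; it was 2 by library size only and without replicate 1 of both groups, and 1 to 3 with 1 library left out, where smaller groups separate more readily. The direction of *Ciita* turned to 0.10 on length-scaled counts, 0.015 on log2(TPM + 1) and 0.032 on log2(TPM + 0.1), and it ranged from -0.38 to 0.036 with 1 library left out. *H2-Eb1* turned to 0.12 on length-scaled counts, with -0.48 to 0.19 left out. *H2-Ab1* ranged from -0.26 to 0.22 and *H2-DMb2* from -0.44 to 0.054, with 9.05e-06 for *H2-DMb2* without replicate 1 of both groups. The directions of *H2-Aa*, *H2-DMa*, *H2-DMb1* and *Cd74* held in all settings run. The difference in the *Cd74* long-form share was 9.38 percentage points over coding transcripts only (chosen after seeing the data), and 3.13 to 7.51 with 1 library left out. That of the main *Ciita* transcript was -1.21 to 6.41 with 1 library left out. The cause of these shifts was not tested.

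Depth limits *H2-DMb2*, *H2-Oa*, *H2-Ob*, *Pdcd1lg2* and the *Ciita* start clusters, all with few counts.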
